A study of Homo sapiens with 28 samples.

Results

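RUVBL1 was knocked down with siRNA in NCI-H2009 cells, a non-small-cell lung cancer line labelled as adenocarcinoma, and RNA was compared with that of cells given a non-targeting siRNA. Both groups carry the genotype label WT and were harvested 2.5 days after reverse transfection. Each group has 2 libraries, numbered replicate 1 and replicate 2, so the comparison rests on 4 of the 28 samples of the series. The other samples hold RNA of the same siRNA in the line NCI-H596, RNA of both lines untreated or after compound B or compound C, and sequenced RUVBL1 or RUVBL2 cDNA. The members here are all genes of the H2009 siRNA table with a mean of at least 1 FPKM (fragments mapped to a gene, scaled by its transcript length and by the library's total) over the 4 libraries. This left 11223 of 12068 named genes, after 19 entries whose names had become spreadsheet dates were dropped. The other 845 named genes had lower means and were not tested. The labels give neither the siRNA sequence nor the number of different siRNAs used. They do not say whether the replicates were separate cultures, so the spread between these libraries may be technical. With the replicate number fitted as a block, the difference between replicates is taken out. Each p-value then sets a gene's mean change against an error taken from how far its changes in replicates 1 and 2 disagree. That error is moderated by the spread of other genes.

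RUVBL1 and its partner RUVBL2 are AAA+ ATPases that assemble into rings of alternating subunits. With RPAP3 and PIH1D1 they form R2TP, a co-chaperone of HSP90, and with a set of prefoldin-like proteins the larger PAQosome. This machinery helps to build RNA polymerase II, box C/D and H/ACA snoRNPs, the U5 snRNP and the PIKK kinases such as ATM, ATR, DNA-PKcs and mTOR. The same ATPases are subunits of the chromatin complexes INO80, SRCAP and TIP60. RUVBL1 and RUVBL2 are abundant in many tumours, and inhibitors of their ATPase activity have been studied in lung cancer cells. What follows concerns RNA, not the assembly or activity of any complex.

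RUVBL1 itself was at 1.75 and 1.11 FPKM in the RUVBL1 siRNA libraries (replicates 1 and 2) and at 87.8 and 64.3 FPKM in the control siRNA libraries. It was the gene with the largest fall among those whose groups did not overlap, and its level matched the label in all 4 libraries. On the scale used throughout, log2(FPKM + 1), it fell by 4.98 (SE 0.11, 95% interval -5.24 to -4.73, adjusted p = 1.95e-07, limma with the replicate number as a block). Changes on this scale are siRNA minus control, and they understate the change of genes with low FPKM. RUVBL2, the partner ATPase, was at 52.9 and 43.9 FPKM after the RUVBL1 siRNA and at 45.1 and 46.7 FPKM in control, a log2 change of 0.07 (SE 0.11, 95% interval -0.19 to 0.32, adjusted p = 0.653). Its groups overlapped, with replicate 1 higher and replicate 2 lower after the RUVBL1 siRNA.

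Among the other subunits of the PAQosome, PIH1D1, the R2TP adaptor that binds phosphorylated clients, was at 29.9 and 24.5 FPKM against 54.5 and 65.0 FPKM in control and fell by 1.11 (adjusted p = 0.000572). PDRG1, a prefoldin-like subunit, was at 25.6 and 22.0 FPKM against 15.05 and 13.6 FPKM and rose by 0.69 (adjusted p = 0.00164). In both cases the 2 siRNA libraries lay beyond both controls. WDR92, PFDN6 and URI1 also fell, by 0.45, 0.44 and 0.35, with overlapping groups. The call for URI1, the prefoldin-like scaffold of the complex, is lost under both rescalings of the libraries described below (adjusted p = 0.138 and 0.099) and with a minimum of 5 FPKM (0.0582). RPAP3, UXT, PFDN2 and POLR2E did not pass, with log2 changes of 0.17, -0.07, -0.25 and -0.01. In all, 5 of the 11 subunits fell (45.5%, beside 27.0% of all genes tested) and 1 rose (9.1%, beside 15.4%). The 5 include RUVBL1, the target of the siRNA.

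Over all genes tested, 1733 rose (15.4% of those tested) and 3025 fell (27.0%) at a Benjamini-Hochberg adjusted p under 0.05. A gene is said below to have risen or fallen only if it passed this threshold. Of them, 129 rose and 318 fell by at least 1 on the log2 scale. Both siRNA libraries lay above both controls for 954 of the genes that rose and below both for 1662 of those that fell. The change had the same sign in both replicates for 4755 of the 4758 genes. This count is largely built into the calls, since the fit takes disagreement between the 2 changes as its error. The exceptions were RNU12, RNU4ATAC and RPL21P28, each listed at 0 in 3 of the 4 libraries, and their calls rest on 1 library. Across all genes tested, called or not, the changes in replicates 1 and 2 correlated with r = 0.848. RNU12, RNU4ATAC and RPL21P28 are named because of their values.

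**Figure D1:**
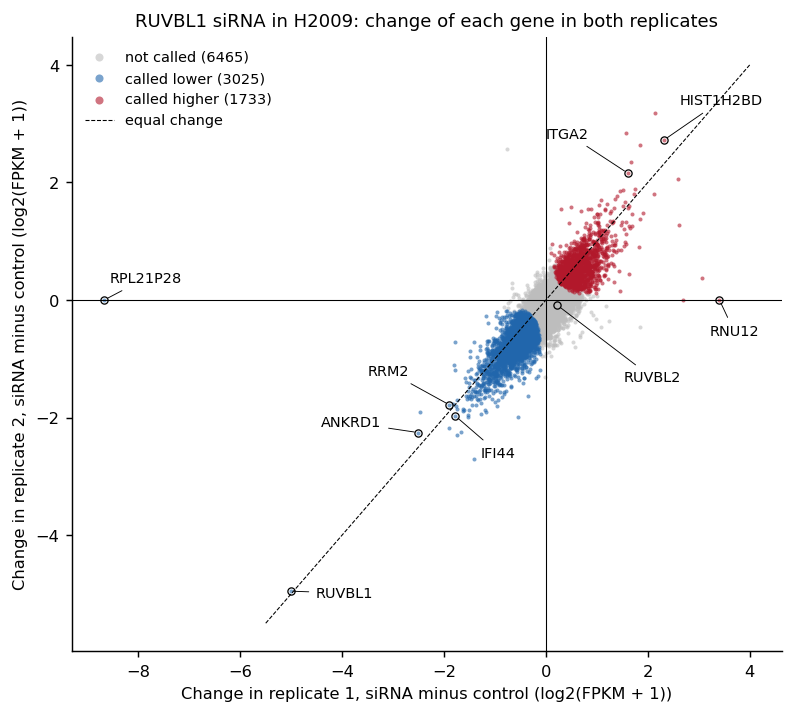
Change of each of the 11223 genes tested, RUVBL1 siRNA minus control siRNA in log2(FPKM + 1), in replicate 1 (x axis) and replicate 2 (y axis); genes called higher are red, called lower blue and not called grey. RUVBL1 lies far from all other called genes with a change in both replicates, RUVBL2 lies near 0, and RPL21P28 and RNU12 changed in replicate 1 only.

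These calls depend on the block. Without it, limma called 0 genes, with 532 genes at an unadjusted p under 0.05 and a smallest adjusted p of 0.56, that of RUVBL1. The difference between replicate 1 and replicate 2 was alike in both groups (r = 0.936 across genes), and for many genes it exceeded the difference between siRNA and control. RPAP3, for example, was at 59.0 and 163 FPKM after the RUVBL1 siRNA and at 53.6 and 142 FPKM in control. The labels leave the meaning of the replicate number unstated. Every count below is from the fit with the block, and none passed without it.

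The split between higher and lower also depends on the scaling. The median log2 change of all genes tested was -0.08 (-0.02 within replicate 1 and -0.14 within replicate 2), and the siRNA library of replicate 2 had the lowest median level, 7.14 FPKM against 8.39 to 9.89 FPKM in the other 3. Genes that rose made up 36.4% of those called. This share was 50.7% after quantile normalization (2923 higher, 2845 lower) and 52.6% after shifting the libraries to 1 median (3156 higher, 2839 lower), the latter moving the median of all genes by 0.10. Each list below is therefore set beside 15.4%, 27.0% and a median of -0.08, and no direction is given for lists whose median lies within 0.1 of 0. The depth behind the FPKM values is unknown. The median half-width of a gene's 95% interval was 0.28.

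The genes with the largest falls, after RUVBL1, were of mixed kinds. ANKRD1, a muscle ankyrin repeat protein and a much used YAP target, was at 2.35 and 2.55 FPKM against 18.2 and 16.0 FPKM in control (log2 change -2.38, SE 0.13, adjusted p = 7.8e-05). DTNBP1, which encodes the BLOC-1 subunit dysbindin, was at 3.19 and 2.06 FPKM against 22.2 and 10.4 FPKM (-2.18). PROSC, a pyridoxal phosphate binding protein, was at 5.18 and 4.49 FPKM against 22.2 and 23.7 FPKM (-2.04). In all of these the control libraries stood several times above the siRNA libraries. RNF212, which encodes a meiotic crossover factor, fell by 2.02, from 45.4 and 42.4 FPKM to 12.8 and 7.78 FPKM. TAF15, an RNA-binding protein and TFIID-associated factor, went from 210 and 149.1 FPKM to 60.9 and 41.96 FPKM and fell by 1.79. UBE2D2, a ubiquitin-conjugating enzyme, went from 62.8 and 37.2 FPKM to 19.6 and 9.27 FPKM and fell by 1.76. The remaining genes of the 15 with the largest falls were FAM45A (-2.06), C10orf91 (-1.96), IFI44 (-1.88), RRM2 (-1.84), INSIG1 (-1.80), MSANTD3 (-1.79), PCDH19 (-1.75) and the snoRNA host gene SNHG4 (-1.74). FAM45A has a near-identical copy, and its value is uncertain.

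At the other end, 4 of the 15 largest rises were of histone H2B genes, described further on. The integrin subunit gene ITGA2 was at 45.4 and 73.0 FPKM against 14.3 and 15.5 FPKM in control (log2 change 1.88, SE 0.14, adjusted p = 0.000155). PHLDA1, a pleckstrin homology-like protein induced by growth factors, was at 57.7 and 46.7 FPKM against 20.3 and 12.2 FPKM (1.66). TMEM2, a cell surface hyaluronidase gene, was at 11.2 and 13.4 FPKM against 3.31 and 2.95 FPKM (1.69). These 3 genes were expressed in every library. No overlap between groups was a condition for entering the 15 largest rises or the 15 largest falls. Several other large rises were of genes nearly silent in control. C2orf78 was at 9.78 and 6.55 FPKM against 0.797 and 0.815 FPKM (2.32), and PON1, which encodes paraoxonase, at 2.65 and 5.34 FPKM against 0.150 and 0.247 FPKM (2.01). GNGT1, a transducin gamma subunit gene, was at 2.57 and 10.2 FPKM against 0.205 and 0.568 FPKM (2.205). LEKR1 and PBLD rose by 1.81 and 1.69. PTCD1 was at 7.60 FPKM in 1 siRNA library and at 0.298 FPKM in the other, and is listed at 0.0222 and 0 FPKM in control, so its call rests mostly on 1 library. SRGAP2C (2.66) has near-identical paralogs and NME1-NME2 (2.24) is a read-through of 2 neighbouring genes, and their values are uncertain. The parent genes NME1 and NME2 did not pass, with log2 changes of -0.24 and -0.35. They are named because of the read-through.

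**Figure D2:**
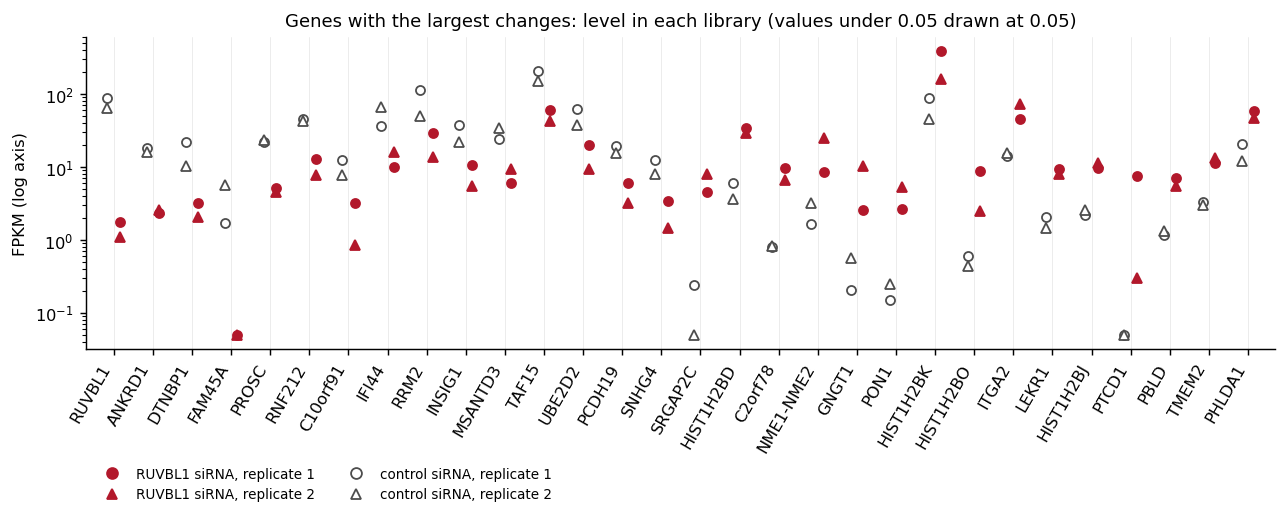
FPKM (log axis) in each library of the 15 genes with the largest falls (left) and the 15 with the largest rises (right) among called genes whose groups do not overlap; red symbols are RUVBL1 siRNA, open symbols control siRNA, circles replicate 1 and triangles replicate 2, with values under 0.05 drawn at 0.05. RUVBL1 fell from 87.8 and 64.3 FPKM to 1.75 and 1.11 FPKM, and the 2 libraries of PTCD1 after the RUVBL1 siRNA lie far apart.

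Lists of genes were compared with the whole table by their counts. Among the lists with 10 or more tested members, the largest share of rises was in the replication-dependent histones, with 14 of 15 members, and the largest share of falls in purine synthesis, with 12 of 13. Some of the histone members reached the minimum on the mean only through their siRNA libraries, so their share is partly set by the filter. Splicing factors (23 of 29 fell), fatty acid synthesis (9 of 13), glycolysis (12 of 21), the interferon response (13 of 23) and pyrimidine and dNTP synthesis (12 of 22) were also well above the 27.0% of all genes. The complexes that contain or depend on RUVBL1 mostly lay near the share of all genes tested. No test of a list against other genes was made.

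**Figure D3:**
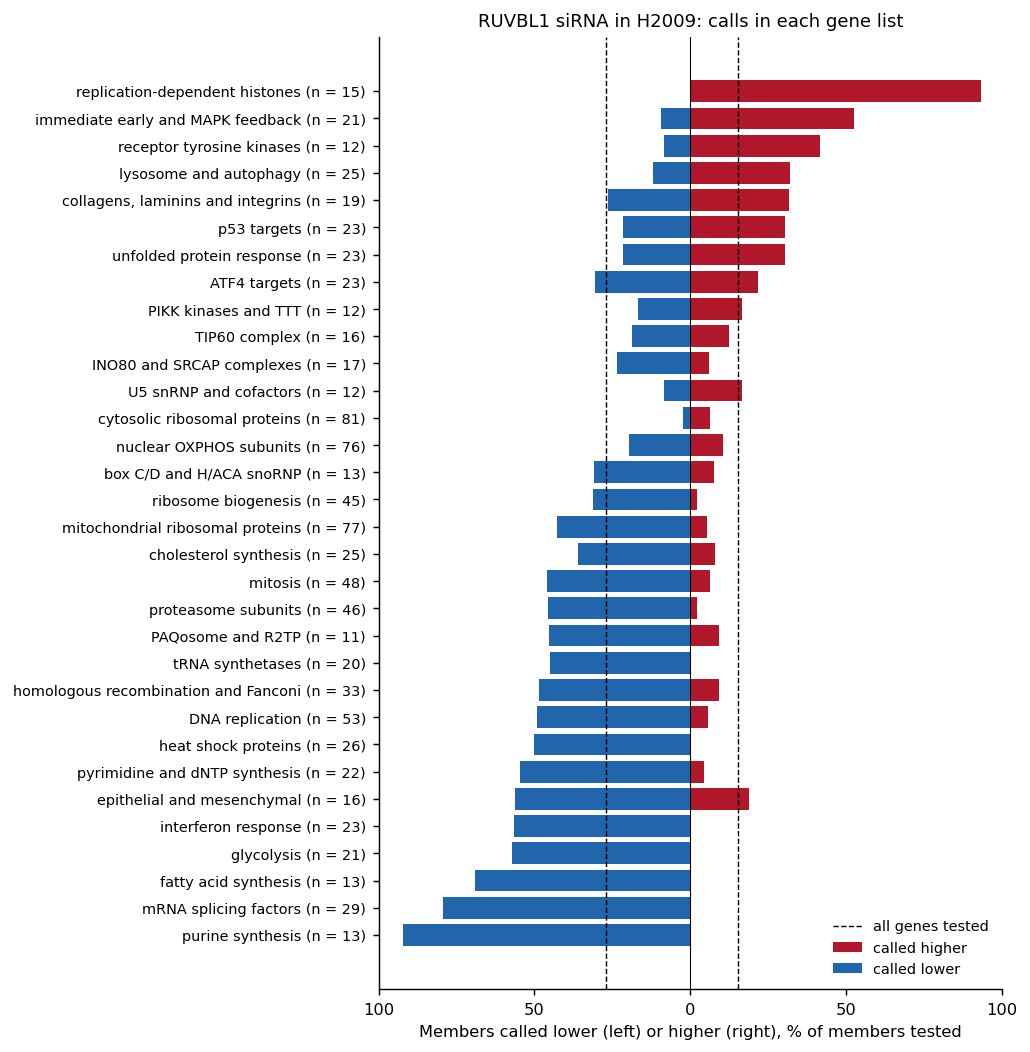
Percentage of the tested members of each list that were called higher (red, right) or lower (blue, left) after the RUVBL1 siRNA in H2009, with the share of all genes tested as dashed lines (15.4% higher, 27.0% lower). Replication-dependent histones extend furthest to the right and purine synthesis furthest to the left. Some of the histone members reached the minimum on the mean only through their siRNA libraries.

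Replication-dependent histone genes supply the nucleosomes of newly copied DNA. Their mRNAs are made mainly in S phase and normally end in a stem-loop instead of a poly(A) tail. The libraries were made with a kit for mRNA, which captures poly(A) RNA, so a higher amount of histone RNA and a larger polyadenylated share of it cannot be told apart here. Of 65 such genes in the list only 24 have values here. Of the 24, 15 passed the minimum, and 14 of these rose. Both siRNA libraries lay above both controls in each of the 14, beside 954 of the 1733 genes that rose over all genes tested. A gene raised from a low level passes a minimum on the mean more easily than one that fell to it. HIST1H2BO, HIST1H2BN, HIST1H2AG and HIST1H2AM were under 1 FPKM in both controls and reached the minimum only through their siRNA libraries. With a minimum of 5 FPKM 5 of the 14 histone genes remained to be called. The median over the 15 was 1.03, against -0.08 for all genes tested. Histone genes have near-identical copies and can share reads, so single values are uncertain.

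HIST1H2BK had the highest level, 386 and 161 FPKM after the RUVBL1 siRNA against 88.1 and 45.3 FPKM in control (log2 change 1.96, SE 0.11, adjusted p = 8.03e-05). HIST1H2BD rose by 2.52, with 33.6 and 29.6 FPKM against 5.92 and 3.62 FPKM. HIST1H2BJ was at 9.56 and 11.4 FPKM against 2.198 and 2.54 FPKM (1.76). These H2B genes stood well clear of their controls in both replicates. HIST1H2BO was at 8.79 and 2.48 FPKM against 0.602 and 0.439 FPKM (1.94). The other members that rose, among them genes for H2A, H4 and the linker histone H1.2, rose by 0.52 to 1.37. HIST1H4E did not pass (0.26, adjusted p = 0.256), with groups that overlap.

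The promoters of the leading H2B genes are shown because these genes rose together. The sequences are the 160 bases before the first listed start, 5′ to 3′ on the gene's strand, from RefSeq on GRCh38.p14, where HIST1H2BK is H2BC12 (chr6:27146859-27147018, minus strand), HIST1H2BJ is H2BC11 (chr6:27132796-27132955, minus strand) and HIST1H2BD is H2BC5 (chr6:26157961-26158120, plus strand). Capitals mark the octamer ATTTGCAT and the pentamer CCAAT, either as written or as the reverse complement.
HIST1H2BK: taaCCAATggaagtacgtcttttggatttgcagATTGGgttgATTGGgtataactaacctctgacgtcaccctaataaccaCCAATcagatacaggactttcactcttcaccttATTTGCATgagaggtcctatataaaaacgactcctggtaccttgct
HIST1H2BJ: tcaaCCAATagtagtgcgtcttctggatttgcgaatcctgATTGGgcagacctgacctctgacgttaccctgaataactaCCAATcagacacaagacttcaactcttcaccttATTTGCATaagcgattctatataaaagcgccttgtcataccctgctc
HIST1H2BD: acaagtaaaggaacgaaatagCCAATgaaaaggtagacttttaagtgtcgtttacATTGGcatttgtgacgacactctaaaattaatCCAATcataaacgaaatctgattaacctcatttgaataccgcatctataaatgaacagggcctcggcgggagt
The octamer, the site that POU-domain factors such as OCT1 read in H2B promoters, lies near the start in HIST1H2BK and HIST1H2BJ, while HIST1H2BD has several CCAAT matches and no exact octamer in this window. For the counts, windows of 300 bases were searched on both strands, 250 before and 50 after each listed start. Of the 15 histone genes 13 matched 1 RefSeq symbol, and 8 of the 13 held the octamer, against 1.77% of all 35116 windows. CCAAT was in 11 of the 13, against 34.6% of all windows. HIST1H2BJ and HIST1H2AG, and HIST1H2BO and HIST1H2AM, lie head to head with overlapping windows, so a match can count for both genes of a pair. A match is a description of the letters and not evidence of binding.

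Factors that make and process histone mRNA moved in both directions. SLBP, the protein that binds the histone stem-loop, was at 185 and 75.7 FPKM against 281 and 122 FPKM and fell by 0.64 (adjusted p = 0.00201), with overlapping groups. ZNF473, a U7 snRNP-associated zinc finger protein, rose by 0.64 and was above both controls in both libraries. CASP8AP2, the histone locus body protein FLASH, rose by 0.55. GON4L rose by 0.46. In all, 3 of the 9 factors rose and 1 fell. Histone genes expressed through the whole cell cycle did not share the rise: 0 of 8 rose and 1, H2AFY, fell by 0.33, a call lost under both rescalings (adjusted p = 0.215 and 0.125). H2AFX, H1F0 and H3F3B had log2 changes of 0.17, -0.20 and -0.19. H2AFX passed as higher under both rescalings, at 0.29 and 0.27.

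Enzymes that make nucleotides fell broadly. In de novo purine synthesis 12 of 13 enzymes fell, and the median was -0.54. The groups did not overlap for 6 of the 12, beside 1662 of the 3025 genes that fell over all genes tested. PAICS, which catalyses consecutive steps in the middle of the pathway, was at 138 and 96.8 FPKM against 295 and 251 FPKM in control (log2 change -1.23, SE 0.11, adjusted p = 0.00024). IMPDH2, the rate-limiting enzyme of guanine nucleotide synthesis, was at 117 and 97.7 FPKM against 206 and 182 FPKM (-0.85). PFAS and ADSL fell by 0.81 and 0.80. PPAT, the first enzyme of the pathway, was the member that did not fall, at 41.7 and 75.7 FPKM against 38.1 and 62.8 FPKM (0.20, adjusted p = 0.149), and it is named for that reason.

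Among pyrimidine, folate and deoxynucleotide enzymes 12 of 22 fell and 1 rose, with a median of -0.41. RRM2, the S-phase subunit of ribonucleotide reductase, was at 29.4 and 13.8 FPKM against 112 and 49.9 FPKM in control (log2 change -1.84, SE 0.10, adjusted p = 7.8e-05). CTPS1, the main CTP synthase of proliferating cells, was at 11.9 and 6.84 FPKM against 36.4 and 21.9 FPKM (-1.54). SAMHD1, which hydrolyses dNTPs, was at 12.2 and 11.6 FPKM against 28.7 and 28.4 FPKM (-1.19). In these 3 genes the groups did not overlap. SHMT1, which transfers one-carbon units to folate, fell by 1.06. The enzyme that rose was MTHFD2, by 0.30 (adjusted p = 0.0489), named as the exception.

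DNA replication genes followed the same direction, with 26 of 53 lower, 3 higher and a median of -0.31. CDC45, the helicase cofactor loaded at origin firing, was at 22.9 and 14.6 FPKM against 51.5 and 38.9 FPKM (log2 change -1.24, SE 0.11, adjusted p = 0.000185). MCM7, a subunit of the replicative helicase, was at 36.8 and 20.5 FPKM against 79.7 and 47.3 FPKM (-1.13). PCNA, the sliding clamp, was at 116 and 52.5 FPKM against 245 and 107 FPKM (-1.05). The replicates of PCNA differed as much as the groups, so its groups overlap although it fell in both replicates. LIG1, the ligase that joins Okazaki fragments, fell by 1.05.

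Repair genes of homologous recombination and the Fanconi pathway fell in 16 of 33 cases and rose in 3, with a median of -0.30. CHEK2, the kinase downstream of ATM, was at 2.46 and 2.44 FPKM against 9.17 and 10.1 FPKM (log2 change -1.62, SE 0.13, adjusted p = 0.000163). FANCL, the ubiquitin ligase of the pathway, was at 18.4 and 15.02 FPKM against 32.7 and 27.0 FPKM (-0.80). RBBP8, which encodes the resection factor CtIP, fell by 0.79. These 3 genes had no overlap between groups.

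Mitotic genes fell in 22 of 48 cases and rose in 3, with a median of -0.26. CENPI, a subunit of the inner kinetochore, was at 8.88 and 8.94 FPKM against 24.7 and 29.8 FPKM in control (log2 change -1.51, SE 0.12, adjusted p = 0.000155). The condensin subunits NCAPH and NCAPG fell by 0.84 and 0.81, and the spindle midzone kinesin KIF20A by 0.82. Among cyclins, CDKs, their inhibitors and E2F factors 11 of 32 fell and 3 rose. MYBL2, the transcription factor B-MYB, was at 16.7 and 8.28 FPKM against 30.9 and 21.0 FPKM (-1.05), and SKP2, the ubiquitin ligase subunit that targets p27, fell by 0.87. Genes of 2 CDK inhibitors rose. CDKN1A, which encodes p21, was at 10.2 and 4.10 FPKM against 2.76 and 1.33 FPKM (1.36, SE 0.15, adjusted p = 0.000403), and CDKN2B, which encodes p15, rose by 0.88. The share of cells in each cell cycle phase was not measured, and in bulk RNA fewer cells in a phase and less RNA per cell cannot be told apart.

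CDKN1A is also a p53 target, and of 23 genes known to be activated by p53, 7 rose and 5 fell. GADD45A, a DNA damage and stress gene, was at 26.9 and 16.3 FPKM against 14.3 and 6.14 FPKM (log2 change 1.07, adjusted p = 0.000599), and PLK3 rose by 0.74. FAS, the death receptor, was at 6.14 and 7.58 FPKM against 10.1 and 14.5 FPKM and fell by 0.75. The list thus holds members beyond both controls in both directions. In the BCL2 family 3 of 12 members rose and 3 fell. The anti-apoptotic BCL2L2, which encodes BCL-w, was at 6.49 and 4.35 FPKM against 16.2 and 12.4 FPKM and fell by 1.26. PMAIP1 and BIK, the BH3-only proteins NOXA and BIK, rose by 0.54 and 0.61, with overlapping groups.

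The complexes that RUVBL1 belongs to or serves were examined next. Of 16 TIP60 subunits 3 fell and 2 rose, close to the shares of all genes. YEATS4, the acetyl-lysine reader GAS41, was at 29.8 and 30.9 FPKM against 63.4 and 59.5 FPKM and fell by 0.99 (SE 0.10, adjusted p = 0.000344). ING3 fell by 0.72, and MBTD1 and EPC2 rose by 0.64 and 0.49. Of 17 genes of INO80 and SRCAP with H2A.Z, 4 fell and 1 rose. The member that rose was NFRKB, an INO80 subunit, at 12.02 and 7.44 FPKM against 6.16 and 5.01 FPKM (0.68), and INO80B fell by 0.46. Of 12 genes for PIKK kinases, their TTT chaperone and partners, 2 fell and 2 rose: MLST8, an mTOR partner, was at 9.16 and 5.34 FPKM against 13.4 and 10.0 FPKM (-0.65), TTI2 fell by 0.37, and SMG1 rose by 0.39 and RICTOR by 0.48. The other 8 of the group did not pass.

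RNA polymerase II genes were 3 higher and 2 lower of 16, with POLR2L at 31.5 and 27.2 FPKM against 22.7 and 19.6 FPKM (log2 change 0.46) and POLR2G at 31.3 and 29.3 FPKM against 44.0 and 36.8 FPKM (-0.40). U5 snRNP genes were 2 higher and 1 lower of 12. AAR2, a U5 assembly factor, rose by 0.63 and PRPF6 by 0.49, both with overlapping groups. Among box C/D and H/ACA snoRNP genes 4 of 13 fell (30.8%, beside 27.0% of all genes tested) and 1 rose (7.7%, beside 15.4%). NHP2, a core H/ACA protein, was at 41.7 and 11.99 FPKM against 91.5 and 29.8 FPKM and fell by 1.18 (SE 0.10, adjusted p = 0.000185). NOP56, a core box C/D protein, was at 96.1 and 59.1 FPKM against 148.6 and 96.4 FPKM (-0.66). ZNHIT3, an assembly factor of the box C/D particle, went the other way at 103 and 62.3 FPKM against 62.3 and 35.6 FPKM (0.75). In the chromatin, polymerase and U5 lists the median lies within 0.1 of 0, so no common direction is given for them.

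Of 29 SR and hnRNP splicing factors 23 fell and 0 rose, with a median of -0.43. HNRNPH3 was at 102 and 161 FPKM against 271 and 416 FPKM in control (log2 change -1.38, SE 0.11, adjusted p = 0.000155), and HNRNPH1 at 178 and 198 FPKM against 359 and 399 FPKM (-1.01). HNRNPR and the RNA helicase DDX39B fell by 0.91 and 0.87. The count of falls in this list is 15 after quantile normalization. In ribosome biogenesis 14 of 45 fell (31.1%, beside 27.0% of all genes tested) and 1 rose (2.2%, beside 15.4%). The gene that rose was RRN3, the factor that brings RNA polymerase I to the promoter of ribosomal DNA, at 48.7 and 74.8 FPKM against 23.1 and 34.7 FPKM (1.06). NPM1, nucleophosmin, was at 1961 and 1235 FPKM against 2966 and 2185 FPKM (-0.71), and RRS1 and UTP6 fell by 0.90 and 0.89.

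Of 77 mitochondrial ribosomal protein genes 33 fell and 4 rose, from -1.10 for MRPL37 to 0.40 for MRPL53, with a median of -0.25. Of 81 cytosolic ribosomal protein genes 2 fell and 5 rose, and the number that rose was 15 after quantile normalization and 11 after median centring. RPL22L1, the paralog of RPL22, was at 8.03 and 11.4 FPKM against 22.1 and 28.4 FPKM and fell by 1.299, the lowest of that list. Of 46 genes with proteasome names 21 fell and 1 rose. PSME3, an activator of the nuclear proteasome, fell by 1.20, and the gene that rose, PSMC3IP (0.34), is a meiotic recombination factor and not a proteasome subunit. Among cytosolic tRNA synthetases 9 of 20 fell and 0 rose, led by LARS (-0.77), VARS (-0.76), AARS (-0.70) and FARSA (-0.66).

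Cytosolic chaperones did not rise. Of 26 heat shock proteins and HSP90 cochaperones 13 fell and 0 rose, with a median of -0.31. PTGES3, the HSP90 cochaperone p23, was at 213 and 144 FPKM against 550 and 427 FPKM in control (log2 change -1.46, SE 0.12, adjusted p = 0.000166). FKBP4, another HSP90 partner, was at 36.7 and 21.0 FPKM against 72.6 and 52.3 FPKM (-1.12). HSPA8, the constitutive HSP70, was at 1054 and 856 FPKM against 2338 and 1728 FPKM (-1.08). All 3 stood below both controls in both libraries. Of 14 chaperonin and prefoldin genes 5 fell and 0 rose, with CCT3 lowest (-0.56). The counts were 2 higher and 2 lower after quantile normalization, and 2 higher and 3 lower after median centring.

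Stress genes of the endoplasmic reticulum and of the integrated stress response split within their lists. Of 23 genes of the unfolded protein response 7 rose and 5 fell. DNAJB9 and SEL1L, which act in the degradation of misfolded proteins, rose by 0.78 and 0.74, while CALR, the calcium-binding chaperone calreticulin, was at 278 and 111 FPKM against 444 and 246 FPKM and fell by 0.91. Of 23 ATF4 targets 5 rose and 7 fell. DDIT3, which encodes CHOP, was at 45.5 and 30.3 FPKM against 17.6 and 11.3 FPKM (log2 change 1.33, SE 0.10, adjusted p = 0.000155), ATF3 at 8.67 and 6.59 FPKM against 2.91 and 2.03 FPKM (1.32), and PPP1R15A, which encodes the phosphatase subunit GADD34, rose by 1.11. PYCR1, an enzyme of proline synthesis, was at 11.9 and 3.76 FPKM against 22.8 and 11.9 FPKM and fell by 1.16.

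Metabolic genes fell in several pathways. In fatty acid synthesis 9 of 13 fell and 0 rose, with a median of -0.48. The desaturase FADS1 was at 20.5 and 9.31 FPKM against 49.0 and 27.4 FPKM (log2 change -1.34, SE 0.11, adjusted p = 0.000179), FADS2 fell by 1.21, and FASN and SCD by 0.67 and 0.66. In cholesterol synthesis 9 of 25 fell and 2 rose, with a median of -0.16. INSIG1, which holds the SREBP escort protein SCAP in the endoplasmic reticulum and is itself an SREBP target, was at 10.6 and 5.41 FPKM against 37.9 and 22.1 FPKM (-1.80). ACAT2 fell by 1.22 and LSS by 0.90. SC5D, a late enzyme of the pathway, rose instead, with 13.04 and 12.6 FPKM against 6.11 and 6.79 FPKM (0.89).

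In glycolysis 12 of 21 fell and 0 rose, with a median of -0.50. PFKP, the platelet-type phosphofructokinase, was at 26.4 and 14.8 FPKM against 61.9 and 35.0 FPKM (log2 change -1.20, SE 0.10, adjusted p = 0.000179). ENO2 fell by 1.22, LDHA by 0.85 and PDK1 by 0.68. Of 76 nuclear genes of oxidative phosphorylation 15 fell (19.7%, beside 27.0% of all genes tested) and 8 rose (10.5%, beside 15.4%). Changes ran from -1.24 for UQCRC2 to 0.70 for NDUFB11, with a median of -0.12. The number that rose was 19 under either rescaling. Among 25 lysosome and autophagy genes the balance was the other way, with 8 higher, 3 lower and a median of 0.22. GABARAPL1, an ATG8-family protein, was at 15.1 and 7.07 FPKM against 6.21 and 3.77 FPKM (0.96, adjusted p = 0.00122). CTSB, cathepsin B, and MAP1LC3B, which encodes LC3B, rose by 0.79 and 0.78, while WIPI1 fell by 0.66. With either rescaling 14 members of this list rose.

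Genes induced by interferon were lower in H2009 after the RUVBL1 siRNA. Of 23 measured 13 fell and 0 rose, with a median of -0.43. Counting also members that did not pass, both siRNA libraries lay below both controls for 12 of the 23 and above both for 2. Over all 11223 genes tested these counts were 2126 below and 1359 above. IFI44 was at 9.95 and 16.0 FPKM against 36.7 and 65.6 FPKM in control (log2 change -1.88, SE 0.11, adjusted p = 7.8e-05). IFIT3, of the family that binds viral RNA, was at 4.59 and 5.02 FPKM against 12.6 and 17.2 FPKM (-1.44). IFIT1 was at 0.807 and 0.851 FPKM against 3.14 and 4.38 FPKM (-1.37), and the RNA helicase DDX60 at 1.21 and 1.97 FPKM against 3.78 and 6.71 FPKM (-1.24). In these genes both siRNA libraries lay below both controls. IFIT1 and DDX60 were at low levels in every library, and IFIT3 only after the RUVBL1 siRNA. ISG15, a ubiquitin-like modifier and a classical member, did not pass, at 2.17 and 3.19 FPKM against 2.49 and 3.67 FPKM (-0.15, adjusted p = 0.373), and it is named for that reason. With a minimum of 5 FPKM 6 members of the list were called lower. After quantile normalization and median centring 4 and 5 members were called higher.

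Upstream genes did not share the fall. Of 15 receptors, kinases and transcription factors of interferon signalling 4 rose and 1 fell. IRF9, the DNA-binding subunit of ISGF3, was at 9.46 and 4.50 FPKM against 5.14 and 3.58 FPKM (log2 change 0.52, adjusted p = 0.0248), with overlapping groups. JAK1 was at 55.6 and 52.6 FPKM against 40.6 and 36.5 FPKM (0.48). IRF2, a factor that competes for IRF sites, was at 4.31 and 4.30 FPKM against 7.24 and 8.66 FPKM and fell by 0.75. Of 11 NF-kappa B targets 1 rose and 1 fell: ICAM1 (0.48) and SOD2 (-0.73).

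Promoters of 3 of the interferon-induced genes that fell are printed beside that of ISG15, which did not pass, to show the element they have in common. They are the 160 bases before the first listed start on the plus strand, from RefSeq on GRCh38.p14: IFI44 at chr1:78649629-78649788, IFIT1 at chr10:89392463-89392622, IFIT3 at chr10:89327837-89327996 and ISG15 at chr1:1013337-1013496. Capitals mark GAAANNGAAA, the core of the interferon-stimulated response element, or its reverse complement, and overlapping matches form 1 run of capitals.
IFI44: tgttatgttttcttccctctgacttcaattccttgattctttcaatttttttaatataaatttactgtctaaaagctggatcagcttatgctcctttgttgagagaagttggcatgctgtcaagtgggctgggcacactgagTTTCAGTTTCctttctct
IFIT1: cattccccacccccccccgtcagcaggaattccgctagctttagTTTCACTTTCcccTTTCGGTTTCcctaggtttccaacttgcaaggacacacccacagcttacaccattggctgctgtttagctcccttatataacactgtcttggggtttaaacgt
IFIT3: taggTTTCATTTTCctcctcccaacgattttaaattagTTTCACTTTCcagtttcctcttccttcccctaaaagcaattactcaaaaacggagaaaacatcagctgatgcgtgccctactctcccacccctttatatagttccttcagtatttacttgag
ISG15: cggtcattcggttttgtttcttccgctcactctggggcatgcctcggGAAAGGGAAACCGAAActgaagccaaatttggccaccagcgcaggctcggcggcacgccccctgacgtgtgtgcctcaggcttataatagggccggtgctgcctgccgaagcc
Among the 20 of 23 list members found in the promoter table, 17 held the element within 250 bases before and 50 after a listed start on either strand, against 3.57% of all windows. By call, it was in 9 of the 11 members that fell and in 8 of the 9 that did not pass, so these letters did not separate the members that fell from the others. Nothing follows from this about the binding of a factor.

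**Figure D4:**
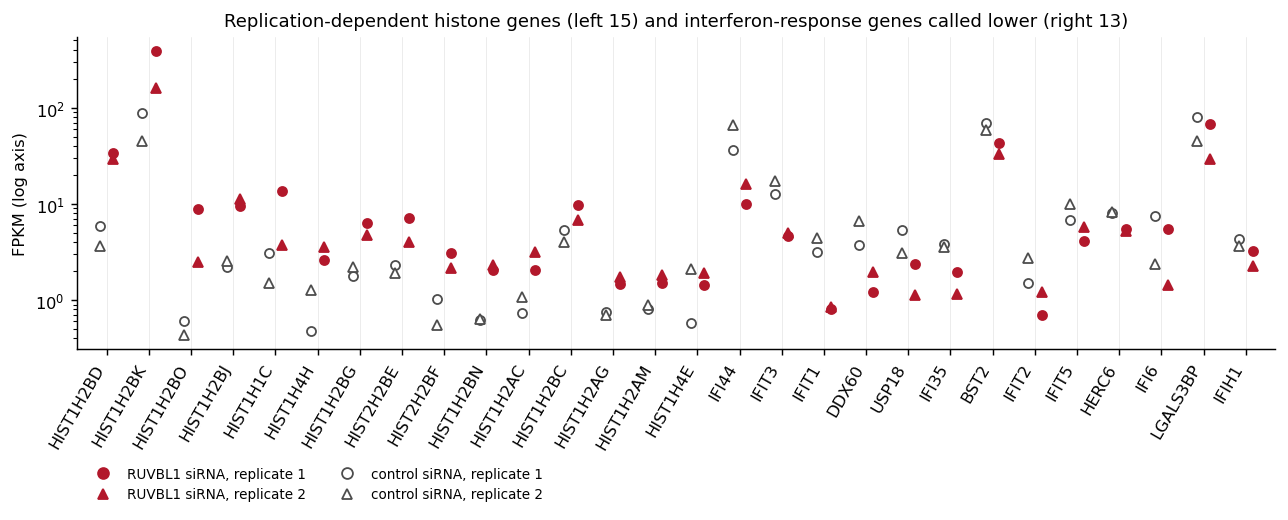
FPKM (log axis) in each library of the 15 replication-dependent histone genes tested (left) and the 13 interferon-response genes called lower (right); red symbols are RUVBL1 siRNA, open symbols control siRNA, circles replicate 1 and triangles replicate 2. Red symbols lie above the open ones for 14 histone genes, with HIST1H4E overlapping, and below them for most of the interferon genes, with IFI6 and LGALS3BP overlapping.

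Genes of growth signalling rose in several places. Of 21 immediate early and MAPK feedback genes 11 rose and 2 fell, with a median of 0.37. Besides PHLDA1, the ERK phosphatase gene DUSP6 was at 36.5 and 21.0 FPKM against 18.6 and 12.04 FPKM (log2 change 0.84, SE 0.11, adjusted p = 0.00075), and SPRY4, a feedback inhibitor of receptor signalling, was at 2.24 and 1.06 FPKM against 0.614 and 0.337 FPKM (0.81). JUND, an AP-1 subunit, fell by 0.90. Of 12 receptor tyrosine kinases 5 rose and 1 fell, with a median of 0.32. EPHA2 was at 51.9 and 21.8 FPKM against 17.9 and 8.14 FPKM (1.40), MET at 38.5 and 48.1 FPKM against 24.8 and 21.1 FPKM (0.88), and ERBB3 fell by 0.52. AXL rose by 0.50 with overlapping groups, at 131 and 57.6 FPKM against 94.1 and 39.5 FPKM.

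Matrix and integrin genes split, with 6 of 19 higher and 5 lower, and a median of -0.02. Changes ran from -0.77 to 1.88, with both siRNA libraries above both controls for 3 members and below both for 4. The members named from this list have its largest absolute changes, and all of them rose. Besides ITGA2, the fibronectin receptor subunit gene ITGA5 was at 51.4 and 30.5 FPKM against 15.3 and 10.4 FPKM (log2 change 1.58, SE 0.11, adjusted p = 0.000154). LAMB3, a chain of laminin-332, was at 31.6 and 16.2 FPKM against 15.8 and 6.86 FPKM (1.04). ITGB5 rose by 0.77, with overlapping groups. Among 13 TGF-beta and BMP targets 3 rose and 2 fell. ID2, an inhibitor of bHLH factors, was at 13.3 and 12.5 FPKM against 3.64 and 3.43 FPKM (1.61), and SKIL rose by 0.68. Among 19 YAP and TEAD genes 5 rose and 6 fell. NT5E, the ectonucleotidase CD73, was at 289 and 235 FPKM against 100 and 76.5 FPKM (1.56), and CTGF rose by 0.84, while ANKRD1 fell by 2.38 and F3, tissue factor, by 0.93. Known targets of 1 pathway thus moved in both directions, past both controls.

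Of 16 epithelial and mesenchymal genes 9 fell and 3 rose, and the falls took in markers of both states. GJA1, connexin 43, was at 11.9 and 14.99 FPKM against 32.5 and 43.8 FPKM (log2 change -1.43, SE 0.11, adjusted p = 0.000155), and VIM, vimentin, at 28.3 and 8.84 FPKM against 73.4 and 18.4 FPKM (-1.16), with overlapping groups. The epithelial splicing factor ESRP2 fell by 0.70. SNAI1, the factor Snail, rose by 0.96, with 6.25 and 3.23 FPKM against 1.86 and 1.82 FPKM. In BLOC-1 and its sorting partners 3 of 17 fell and 2 rose, with AP3S1 at -0.56 and HPS5 at 0.46 beside DTNBP1 at -2.18. Among vitamin B6 genes PROSC fell, while PDXK and PDXP, at -0.24 and 0.06, did not pass.

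The labelled tissue was checked against markers. Of 17 lung epithelial and adenocarcinoma markers 10 are in the table, and their summed level was 951 to 2507 FPKM after the RUVBL1 siRNA and 1251 to 2664 FPKM in control. Keratins 7, 8, 18 and 19, EPCAM and the lineage factor NKX2-1 were measured in every library, while the surfactant genes and NAPSA are not in the table used here. Of the 10, 5 fell. NKX2-1 was at 38.6 and 15.9 FPKM against 55.8 and 25.4 FPKM (log2 change -0.59, adjusted p = 0.00278), with overlapping groups. KRT19 fell by 0.70, KRT7 by 0.52 and the mucin gene MUC1 by 1.13. Of 9 squamous markers only SOX2 is in the table, where it was at 9.90 and 4.13 FPKM against 22.8 and 13.9 FPKM and fell by 1.33. COL1A1 and ACTA2, the only fibroblast markers present, summed to 0.859 to 2.24 FPKM, CD68 was the only leukocyte marker, and of the endothelial markers 0 are in the table.

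The same genes were then set beside 2 other comparisons of the series, each fitted in its own table with the block. They are the RUVBL1 siRNA in H596 for 3 days, where 19.8% of 12004 genes rose and 26.6% fell, and 100 nM compound B in H2009 for 1 day against untreated cells, where 24.6% of 11759 rose and 26.2% fell. Compound B is known here only by that name, and the series' design text describes it as RUVBL1 inhibition. The 3 comparisons share no library, and they differ in time and in table, so no test was made between them. Without the block 0 genes passed in H596, and with compound B 320 rose and 200 fell.

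Of the 1550 genes that rose here and were tested in H596, 671 rose there too, which is 43.3% of them and 36.3% of the 1848 that rose in H596. Of 2784 that fell, 1424 fell in H596, or 51.1% of them and 48.0% of the 2968 there. With compound B, 985 of 1670 that rose also rose, 59.0% of these and 39.0% of the compound's 2526, and 1515 of 2977 that fell also fell, 50.9% and 51.3%. Opposite calls were fewer: 91 and 211 genes in H596, and 74 and 184 genes with compound B, for genes that rose and fell here. Across genes, changes correlated with r = 0.449 with those in H596 (10323 genes) and r = 0.557 with those of compound B (10975 genes), given as a description.

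The histone rise was large in both H2009 comparisons. With compound B 14 of 15 replication-dependent histones rose, with a median log2 change of 1.51, while in H596 4 of 13 rose and 2 fell, with a median of 0.09. HIST1H2BD changed by 2.52 here, by 2.51 with compound B, and by 0.05 in H596, where it did not pass. The interferon list also had unlike counts in the H2009 comparisons and in H596. With compound B 14 of 23 fell and 2 rose, and in H596 18 of 23 rose and 1 fell. IFI44 changed by -1.88 here, by -2.37 with compound B and by 0.35 in H596. For both lists the values stand side by side and the difference from H596 was not tested. Line, time and table differ together and cannot be told apart.

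Nucleotide, replication and splicing genes fell in all 3 comparisons. RRM2 changed by -1.84 here, by -0.92 in H596 and by -0.86 with compound B, and CTPS1 by -1.54, -0.33 and -1.13. Purine enzymes fell in 12, 9 and 9 of 13 cases in the same order, DNA replication genes in 26, 33 and 26 of 53, and splicing factors in 23 of 29 cases in each. Mitotic genes fell in 22, 48 and 27 of 48 cases. Cytosolic ribosomal proteins, of which 2 of 81 fell here, fell in 65 of 81 cases in H596 and in 62 of 81 with compound B.

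Other genes had unlike values in the 3 comparisons. DTNBP1 changed by -2.18 here, by -1.59 in H596 and by -0.56 with compound B, and PTGES3 by -1.46, -1.26 and -0.48. PROSC changed by -2.04 and -1.17 with the siRNA and rose by 0.48 with compound B. RUVBL1 changed by -4.98 and -5.13 with the siRNA and by -0.39 with compound B. In contrast, CDKN1A rose by 1.36 here and by 2.83 with compound B, and by 0.17 in H596, and EPHA2 rose by 1.40 and 1.82 in H2009 and changed by 0.01 in H596, where it did not pass. ANKRD1 changed by -2.38 here and by -1.39 with compound B, and rose by 0.27 in H596. Whether these differences exceed the error between comparisons was not tested.

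**Figure D5:**
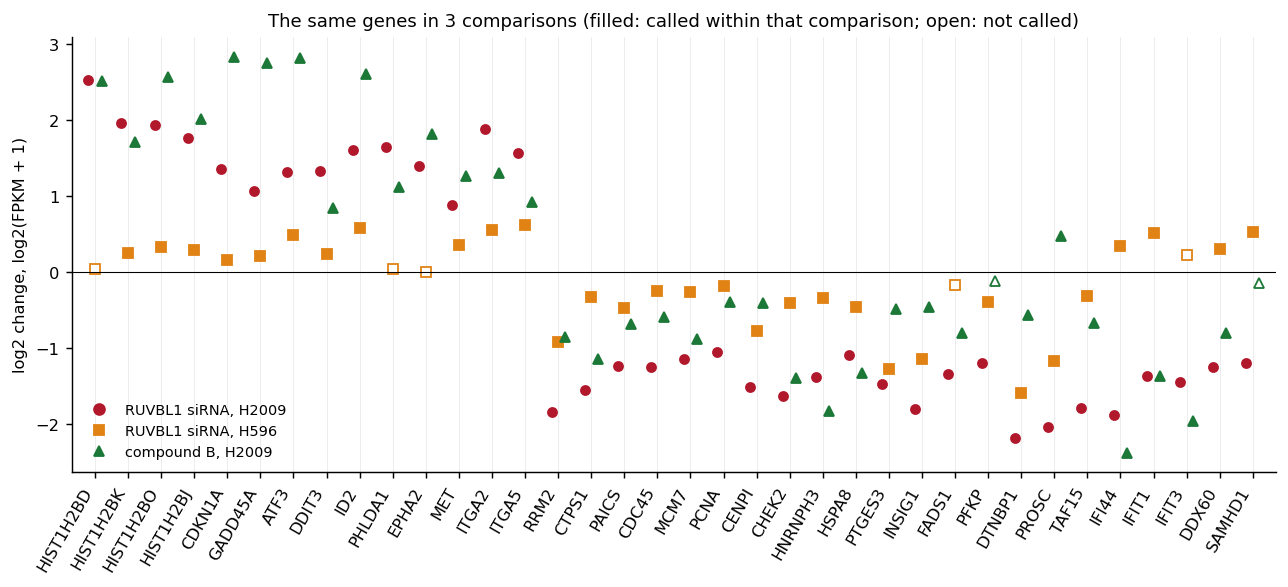
Log2 change, in log2(FPKM + 1), of 36 named genes in 3 comparisons: RUVBL1 siRNA in H2009 (red circles), RUVBL1 siRNA in H596 (orange squares) and compound B in H2009 (green triangles); filled symbols passed within their comparison. IFI44, IFIT1, IFIT3 and DDX60 lie below 0 in both H2009 comparisons and above 0 in H596, and PROSC lies above 0 only with compound B.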

How the data were processed

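The authors deposited FPKM values per gene for each library. Per the submitters' processing notes, the tools were CASAVA 1.8.2, TopHat2 2.0.12 and Cufflinks 2.2.1, with the build hg19; RNA was prepared with a stranded mRNA kit, per the labels' protocols. Values were analysed as log2(FPKM + 1) with limma 3.58.1 (R 4.3.3), with the replicate number as a block, empirical Bayes moderation with a mean-variance trend, and p-values adjusted by Benjamini-Hochberg over all genes with a mean FPKM of at least 1. FPKM keeps no read depth, so no count model was used. The script was tested on simulated data. Named genes were RUVBL1, RUVBL2, the 15 highest and 15 lowest changes among called genes with no overlap between groups, up to 4 members with the largest change per list, and all members of the PAQosome list and of lists with up to 6 measured members. For ribosomal, proteasome and oxidative phosphorylation lists, the 2 extreme members were named. Members and lists were chosen with earlier results of these data known. Compound C and the cDNA samples were not used here, and some results are not reported here.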

Additional observations from a re-analysis of the deposited data

Results flagged for a closer look

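For 5 genes named here both siRNA libraries lay beyond both control libraries in one direction in H2009, after 2.5 days of the RUVBL1 siRNA, and in the opposite direction in H596, after 3 days. The difference itself was not tested, and other named genes had opposite signs with overlapping libraries in at least 1 line. IFI44 changed by -1.88 in H2009 and by 0.35 in H596 on the log2 scale. IFIT1 changed by -1.37 and 0.52, and SAMHD1, which is itself induced by interferon, by -1.19 and 0.53. WIPI1, an autophagy protein, changed by -0.66 and 0.35. FANCL changed by -0.80 and by 0.09, and did not pass in H596. Line, time and table differ together between these comparisons and cannot be told apart.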

How the results depend on the processing

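Without the replicate block, 0 genes were called higher and 0 lower in H2009, and RUVBL1 kept its log2 change of -4.98 with an adjusted p of 0.56 (limma). The labels give both groups the numbers 1 and 2, without stating their meaning, and 2 pairs are too few to settle it from the data; the deviations of same-numbered libraries correlated with r = 0.936 across genes. With the block, 1108 genes were called higher with a minimum of 5 FPKM, 2923 after quantile normalization and 3156 after median centring, against 1733. The number called lower was 2108 to 3133 against 3025, lowest with the minimum of 5 FPKM, and RUVBL1 was called lower throughout, under these settings, under pseudocounts of 0.1 and 0.5, without the filter on low values, without the mean-variance trend and without genes listed at 0. Leaving out 1 library removes a pair, so those fits have no block and take in the difference between replicates, with the lone library of a group assumed to vary like the other group's; 0 to 9 genes (0, 0, 4 and 9) were called higher, 1 to 3 lower, and the RUVBL1 log2 change was -5.21 to -4.76. In these fits the log2 change of 8 named genes that had passed with the block changed sign. The AXL log2 change ran from -0.11 to 1.12, with the opposite sign at -0.084 and -0.11. The CASP8AP2 log2 change ran from -0.10 to 1.20, with the opposite sign at -0.10 and -0.038. The KRT7 log2 change ran from -1.44 to 0.41, with the opposite sign at 0.41 and 0.25. The NDUFB11 log2 change ran from -0.08 to 1.48, with the opposite sign at -0.075. The NKX2-1 log2 change ran from -1.20 to 0.03, with the opposite sign at 0.030. The RICTOR log2 change ran from -0.04 to 0.99, with the opposite sign at -0.035. The SLBP log2 change ran from -1.28 to 0.00, with the opposite sign at 0.00075. The URI1 log2 change ran from -0.81 to 0.11, with the opposite sign at 0.11. The depth behind the FPKM values is unknown, which limits what can be said of genes near 1 FPKM.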
